A study of Mus musculus with 4 samples.

Results

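The genes described here are 35 collagen, laminin, matrix glycoprotein and integrin genes, chosen by gene symbol. All 35 were listed in at least 1 of the 4 libraries, among 17762 genes in all. They fall into 11 interstitial matrix genes, 13 basement membrane genes and 11 integrin genes. Interstitial matrix genes make the fibrils and glycoproteins between cells, apart from Vim. Vim encodes vimentin, a filament protein inside cells, and is counted in this group throughout. Polyadenylated RNA was sequenced from adenomas of C57BL/6 mice aged 110 days, all carrying ApcMin, a mutant allele of the tumour suppressor gene Apc that leads to intestinal tumours. Of the libraries, 2 were labelled Strap WT and 2 Strap KO (WT and KO below). The series' design line writes the KO genotype as StrapIEKO, and the labels name neither the Cre driver nor the exons removed. The tissue label is colon adenoma, while the extraction protocol speaks of intestinal adenomas, and the number of mice or adenomas behind a library is not stated.

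The basement membrane is a thin sheet of laminin trimers and type IV collagen that lies under every epithelium, with nidogen and the proteoglycan perlecan linking the networks. Integrins are receptors made of an alpha and a beta chain that hold the cell to this sheet. In gut tumours, fibroblasts are the known main source of fibrillar collagens, while epithelial cells make laminin chains and integrins themselves.

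Each library held 14084831 to 15640941 expected counts. Strap, which encodes a WD-repeat protein known for binding TGF-beta receptors, had 2445 and 1724 expected counts in WT against 300 and 364 in KO, where here and below replicate 1 comes first. The transcripts left in KO amounted to 16.9% of the WT level. Levels are given as CPM, counts relative to the TMM-scaled library total, for comparing libraries, and as FPKM, which is also scaled by transcript length, for comparing genes. All 9 epithelial markers were above 1 FPKM, with sums of 6674 and 7950 FPKM in WT and 7582 and 5740 FPKM in KO. Small-intestinal markers summed to between 9651 and 12993 FPKM, against 0.19 to 5.16 FPKM for 5 colon markers, so the colon label was not borne out by these genes. Apart from Fabp6, each small-intestinal marker was lowest in WT replicate 2, such as Gata4 at 8.25 FPKM against 40.4 to 51.4 FPKM elsewhere. Fabp6 was highest there, at 5605 FPKM against 279 to 1860 FPKM, as was the colon sum. The part of this difference in comparisons with WT replicate 2 alone was not tested. Of 12 fibroblast markers 8 stayed under 1 FPKM in every library. The other 11 besides Gsn, which encodes the actin-severing protein gelsolin and is also made by epithelium, summed to 3.75 and 2.94 FPKM in WT and 2.21 and 3.5 FPKM in KO. Pdgfra, a defining fibroblast receptor gene, was at 0.85 and 0.05 FPKM in WT, at 0.01 FPKM in KO replicate 1, and not listed in KO replicate 2. The fibroblast markers did not share 1 order across libraries. Dcn was also highest in WT replicate 1, at 1.37 FPKM. Pdgfrb was lowest there, at 0.41 and 1.38 FPKM in WT and 0.89 and 0.84 FPKM in KO. Thy1 and Fap were highest in KO replicate 2, at 1.22 and 0.65 FPKM.

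WT replicate 1 stood apart from the other libraries. Gastric and Brunner gland markers summed to 66.5 FPKM in it and to at most 0.96 FPKM in the others, with all 5 markers listed in both WT libraries and 4 of 5 not listed in each KO library. Mesothelial markers summed to 12.9 FPKM there against at most 0.63, squamous and basal markers to 7.57 against at most 0.91, and 10 endothelial markers to 13.2 against at most 2.33. The mesothelial sum came mostly from Msln and Upk3b, at 10.6 and 2.26 FPKM, with Wt1 and Lrrn4 at 0.02 FPKM each. The squamous and basal sum came mostly from Krt14 and Krt4, at 5.08 and 2.26 FPKM. Krt13, Trp63 and Krt5 were at 0.16, 0.04 and 0.03 FPKM in that library. Most of the endothelial sum came from Cdh5, the VE-cadherin gene, at 9.1 FPKM, while Kdr and Pecam1 were at 0.06 and 0.17 FPKM in the same library. KO replicate 2 was high in T and natural killer cell markers, at 290 FPKM against 27.6 to 49.5 FPKM. Which cells these markers came from, and the part of such cells in the results below, was not tested. The libraries also split by sex-linked genes: among the replicates numbered 1, Xist, the RNA of X inactivation, had 968 CPM (WT) and 197 CPM (KO), and in those numbered 2 it stayed under 1 CPM. Ddx3y, on the Y chromosome, was listed only in the replicates numbered 2, with 39.1 CPM (WT) and 33.3 CPM (KO), so that each genotype held 1 library of either kind. In these bulk libraries, fewer cells of a type and less RNA per cell cannot be told apart.

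**Figure D1:**
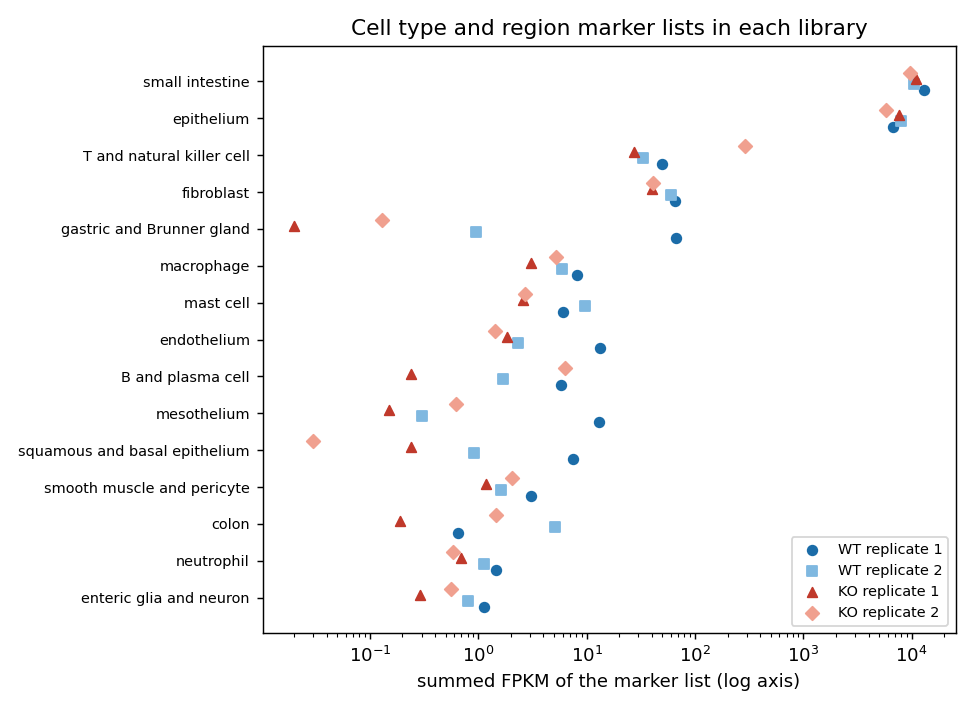
Summed FPKM (log axis) of each marker list in the 4 libraries, 1 point per library. Epithelial and small-intestinal lists lie between 5740 and 12993 FPKM, the gastric and Brunner gland list is at 66.5 FPKM in WT replicate 1 and at most 0.96 FPKM elsewhere, and the colon list stays at or under 5.16 FPKM.

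The comparison asks which matrix and adhesion genes differ in ApcMin adenomas when Strap is targeted. The 6 laminin chain genes that could be tested stood at 8.46% to 21.8% of the WT mean in KO, and Fn1 and Thbs1 at 2.03% and 7.20%. Against WT replicate 2 alone, the laminin genes stood at 11.1% (Lamb2) to 64.4% (Lamb1), Fn1 at 12.4% and Thbs1 at 21.8%. By contrast, the tested integrin genes stayed closer to the WT level, and Itgb1, Itga3, Itgb4 and Itga6 among them were the most abundant members. The genes of interstitial collagen stayed under 1 FPKM in all 4 libraries and were each highest in WT replicate 1, at 0.06 to 0.35 FPKM. The mean CPM was lower in KO for 30 of the 35, as for 52.3% of all listed genes. No member passed edgeR's quasi-likelihood test at a Benjamini-Hochberg adjusted p under 0.05, where 0% of the 12769 tested genes passed as lower and 0.00783% as higher in KO. Strap, the targeted gene, did not pass either (log2 fold change -2.57, SE 0.26, adjusted p = 0.0942 in edgeR and 8.17e-14 in DESeq2). A lack of edgeR calls therefore does not show that a gene was unchanged. At an unadjusted p under 0.05 edgeR gave 10 members lower and 0 higher, against 8.69% and 7.08% of all tested genes. DESeq2 called 8 members lower and 0 higher, against 3.32% and 1.82% of all tested genes, while limma on FPKM gave 0 calls. Whether each library is a separate mouse is not stated, so p values measure only the spread between these libraries.

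The count filter, which asked for 0.652 CPM in at least 2 libraries, was passed by 23 of the 35 members. Fn1 and Col4a1 reached it in the WT libraries alone, so their place among the tested genes already depended on a high WT level. Both are included in the 10 members lower at an unadjusted p under 0.05 in edgeR and in the 8 that DESeq2 called lower. The background shares beside those counts, and beside later counts of calls that include either gene, were not adjusted for this. The other 12 were 7 interstitial matrix genes, 4 basement membrane genes and Itgb8, and their counts are given below without a test.

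**Figure D2:**
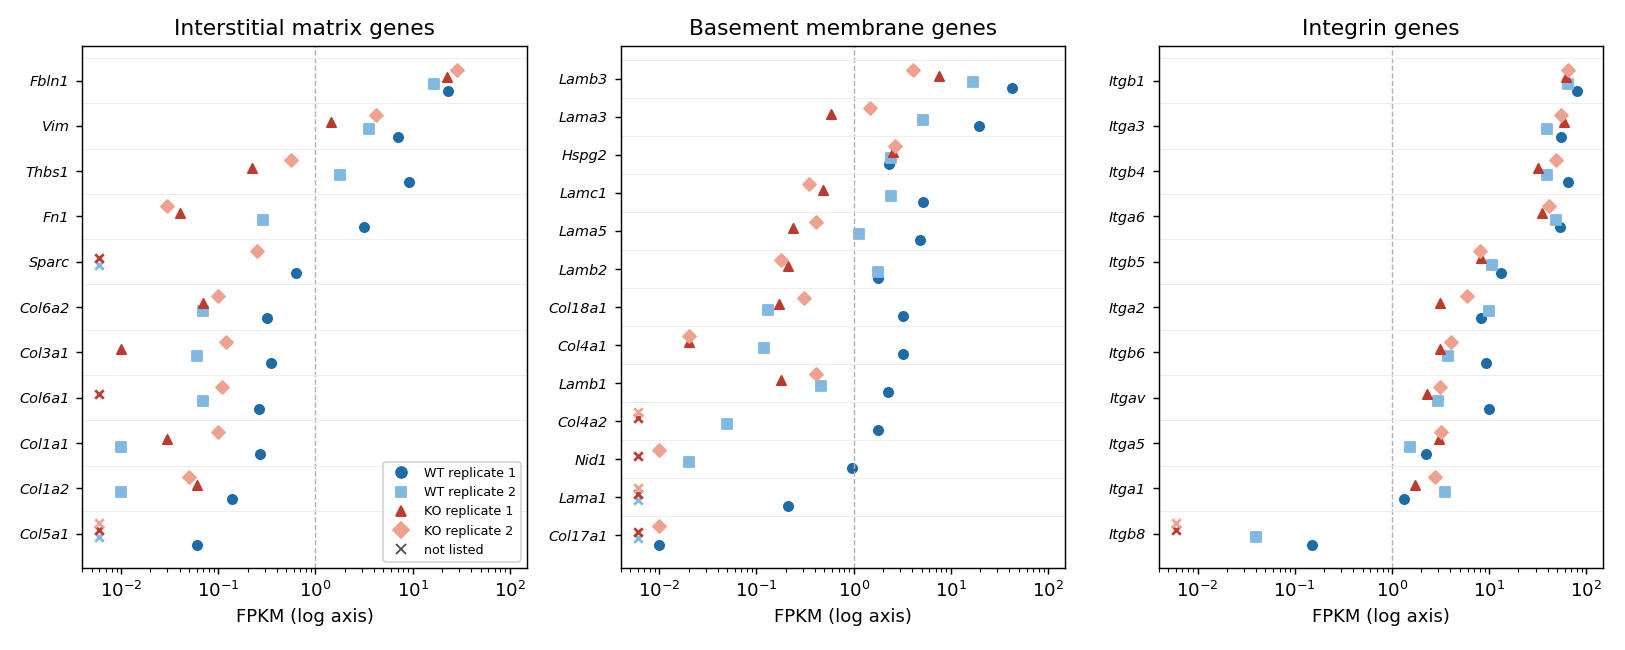
FPKM (log axis) of each of the 35 genes in each library, grouped by role and ordered by mean level, with crosses for libraries in which a gene was not listed. Integrin genes other than Itgb8 lie above 1 FPKM in every library, most collagen genes lie below it, and the laminin genes are spread apart with WT replicate 1 at the top.

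Among the interstitial matrix genes, the fibrillar collagens were barely detected. Col1a1, which encodes the main chain of type I collagen, had 25 and 1 expected counts in WT against 3 and 8 in KO. Col1a2, its partner chain, had 11 and 1 in WT and 5 and 4 in KO. Col3a1, the type III collagen gene of loose connective tissue, had 30 and 5 in WT and 1 and 9 in KO. In each of these 3 genes WT replicate 1 was highest and the genotypes overlapped. Col5a1, whose product starts fibrils of type I collagen, had 8 counts in WT replicate 1 and was listed nowhere else. Of the beaded-filament chains, Col6a1 had 16 and 4 counts in WT and 6 in KO replicate 2, and was unlisted in KO replicate 1. Col6a2 had 18 and 4 counts in WT and 4 and 5 in KO. Sparc, a collagen-binding glycoprotein gene, was listed only in replicate 1 of WT, with 25 counts, and in KO replicate 2, with 9. These 7 genes stayed under 1 FPKM in every library and did not pass the count filter, so no difference between genotypes was tested in them.

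Fbln1 stood apart from the rest of its group. It encodes fibulin 1, a glycoprotein of elastic fibres and basement membranes, and was at 75.6 and 53.6 CPM in WT against 79.6 and 91.1 CPM in KO. The KO values were both above the WT values by a small margin, with a log2 fold change of 0.40 (SE 0.24, edgeR adjusted p = 0.456). At 16.4 to 28.8 FPKM it made up more of the summed FPKM of the interstitial matrix genes than the rest of the group in every library. Vim, the vimentin gene of mesenchymal cells and leukocytes, was at 12.3 and 6.29 CPM in WT against 2.73 and 7.16 CPM in KO. Its genotypes overlapped (log2 fold change -0.91, SE 0.61, edgeR adjusted p = 0.5).

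Thbs1 and Fn1 were lower in both KO libraries than in both WT libraries, as was the case for 24.6% of tested genes. Thbs1 encodes thrombospondin 1, a glycoprotein that can activate latent TGF-beta. It was at 52.2 and 10.3 CPM in WT against 1.37 and 3.13 CPM in KO, and the log2 fold change was -3.79 (SE 0.87, adjusted p = 0.199 in edgeR and 6.02e-05 in DESeq2). Fn1, the fibronectin gene, was at 24.6 and 2.21 CPM in WT against 0.342 and 0.204 CPM in KO, the last pair resting on 5 and 3 counts. Its log2 fold change was -5.58 (SE 1.30, adjusted p = 0.204 in edgeR and 3.6e-05 in DESeq2). Both genes were highest in WT replicate 1, by 5.06-fold and 11.2-fold over WT replicate 2. Against WT replicate 2 alone the log2 fold changes were -2.21 for Thbs1 and -2.99 for Fn1. Over the 4 tested genes of the group, Fn1 among them, the median log2 fold change was -2.35, against 0.00 over all tested genes. It was -1.34 over all 11 genes without a filter and -1.29 for the 4 without WT replicate 1.

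Laminin genes were lower in KO across alpha, beta and gamma chains. In all 6 tested laminin genes the KO values were both below the WT values, as for 24.6% of all tested genes. Lamb2, the beta-2 chain gene, lies on chromosome 9 from 108479847 to 108490530 in mm10 and had the smallest p of the members. It was at 9.82 and 9.8 CPM in WT against 1.23 and 0.954 CPM in KO, so that the WT libraries differed far less from each other than from either KO library. The log2 fold change was -3.16 (SE 0.45, adjusted p = 0.105 in edgeR and 1.61e-06 in DESeq2). It was -3.17 against WT replicate 2 alone and -3.16 against WT replicate 1 alone, so the difference was as large without the library that stood apart. Lamc1, the gamma-1 chain gene shared by most laminins, lies on chromosome 1 from 153218922 to 153332786. It was at 38.6 and 18.2 CPM in WT against 3.89 and 2.52 CPM in KO (log2 fold change -3.14, SE 0.49, adjusted p = 0.124 in edgeR and 2.49e-07 in DESeq2). Without WT replicate 1 its log2 fold change was -2.52.

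The alpha-3 and beta-3 chains of the anchoring laminin of epithelia had the most abundant transcripts per length of the 7 laminin genes. Lama3, the alpha-3 gene, was at 199 and 52.2 CPM in WT against 6.56 and 14.7 CPM in KO (log2 fold change -3.56, SE 0.73, adjusted p = 0.18 in edgeR and 1.74e-06 in DESeq2). Lamb3, the beta-3 gene on chromosome 1 from 193294353 to 193343878, was at 170 and 66.1 CPM in WT against 32 and 15.7 CPM in KO (log2 fold change -2.30, SE 0.54, adjusted p = 0.205 in edgeR and 0.000664 in DESeq2). Against WT replicate 2 alone these were -2.31 for Lama3 and -1.49 for Lamb3. These chains did not keep 1 ratio: Lamb3 was at 2.2, 3.27 and 2.77 times the FPKM of Lama3 in WT replicates 1 and 2 and KO replicate 2, and at 12.6 times in KO replicate 1.

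Lama5 and Lamb1, chains of broader basement membrane laminins, were also highest in WT replicate 1 and lower in both KO libraries. Lama5, the alpha-5 chain gene of adult epithelial basement membranes on chromosome 2 from 180176373 to 180225904, was at 54.3 and 12.7 CPM in WT against 2.87 and 4.43 CPM in KO (log2 fold change -3.20, SE 0.73, adjusted p = 0.199 in edgeR and 0.00018 in DESeq2). Lamb1, the beta-1 chain gene, was at 12.8 and 2.6 CPM in WT against 1.09 and 2.25 CPM in KO (log2 fold change -2.20, SE 0.86, adjusted p = 0.306 in edgeR and 0.141 in DESeq2). For Lamb1 the gap between WT replicate 2 and KO replicate 2 was small, and the log2 fold change against WT replicate 2 alone was -0.65. Lama5 had -1.81 in the same comparison. Lama1, the alpha-1 chain gene typical of embryonic basement membranes, had 30 counts in WT replicate 1 and was not listed in the other 3 libraries. Summed over the 7 laminin genes, the level was 76.5 and 27.6 FPKM in WT and 9.16 and 6.93 FPKM in KO.

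Promoter windows from RefSeq (GRCm38.p6), running from 250 bases before to 50 bases after a start, were found for 27 of the 35 genes, in 33 windows. The bases before the start are printed for Lamb2, the member with the smallest p, and for 1 of the 2 annotated starts of Lamb3, the most abundant laminin gene. This Lamb3 start lies inside the gene's span, downstream of the first base of the span at 193294353. Both stretches are printed so that the letters before these starts of the beta chains can be compared. Capitals mark a match, on either strand, to any of 5 motifs, none of which lies within another: the TATA box TATAAA, the extended Smad box CAGACA, the AP-1 motif TGACTCA, the GC box GGGCGG and the motif CCAAT.
Lamb2, chr9:108479612-108479861, plus strand: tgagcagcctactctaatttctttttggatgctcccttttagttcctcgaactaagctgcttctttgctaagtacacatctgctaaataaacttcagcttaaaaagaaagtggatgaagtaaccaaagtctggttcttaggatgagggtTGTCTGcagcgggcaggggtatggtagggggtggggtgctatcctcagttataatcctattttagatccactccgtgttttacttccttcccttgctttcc
Lamb3, chr1:193301744-193301993, plus strand: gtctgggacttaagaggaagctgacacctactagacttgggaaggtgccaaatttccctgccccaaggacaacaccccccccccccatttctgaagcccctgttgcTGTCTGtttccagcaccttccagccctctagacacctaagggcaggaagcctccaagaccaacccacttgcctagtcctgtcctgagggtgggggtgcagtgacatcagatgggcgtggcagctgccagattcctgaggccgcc
Each stretch held 1 match, to CAGACA on the minus strand, read as TGTCTG. Over all 32851 windows of the table, 21% held CAGACA, and 13 of the 33 member windows (39.4%) did. Of the other motifs, GGGCGG was in 35.7% of all windows and 57.6% of member windows, CCAAT in 37.4% and 30.3%, TATAAA in 13.6% and 9.09%, and TGACTCA in 5.2% and 3.03%. The median GC content was 52.7% over all windows and 59.7% over member windows. A match describes letters in a window and shows no binding.

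Col4a1 and Col4a2, which encode the main chains of the network-forming type IV collagen, had most of their counts in WT replicate 1. Col4a1 was at 21 and 0.779 CPM in WT against 0.137 and 0.136 CPM in KO, where it had 2 counts in each library. Its log2 fold change was -6.23 (SE 1.70, adjusted p = 0.227 in edgeR and 0.000309 in DESeq2), and -2.46 without WT replicate 1. Col4a2 had 175 and 5 counts in WT and was not listed in either KO library. The pair is transcribed in opposite directions on chromosome 8, and the 22 bases from an annotated start of Col4a2 to that of Col4a1 are printed to show how close they lie, with capitals marking a GGGCGG match.
Col4a1 and Col4a2, chr8:11312805-11312826, plus strand: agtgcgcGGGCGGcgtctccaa
In the libraries that listed both genes, Col4a1 was at 1.82 and 2.4 times the FPKM of Col4a2. The RefSeq spans of the pair overlap by 85 bases, and without known strandedness reads from those bases cannot be assigned.

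The other basement membrane genes went different ways. Hspg2, the perlecan gene on chromosome 4 from 137468751 to 137570630, was the steadiest member at 32.1 and 34.2 CPM in WT against 38.4 and 36.4 CPM in KO (log2 fold change 0.17, SE 0.19, edgeR adjusted p = 0.688). Col18a1, whose product is a proteoglycan collagen and the source of endostatin, was at 16 and 0.649 CPM in WT against 0.888 and 1.64 CPM in KO. Only WT replicate 1 was high in Col18a1, and its log2 fold change of -2.72 (SE 1.33, edgeR adjusted p = 0.38) became 0.93 without that library. Nid1, the nidogen gene, had 90 and 2 counts in WT and 1 count in KO replicate 2, and was unlisted in KO replicate 1. Col17a1, the hemidesmosomal collagen of stratified epithelia, had 1 count in WT replicate 1 and 1 in KO replicate 2. The median log2 fold change of the 9 tested basement membrane genes, Col4a1 among them, was -3.14, against 0.00 over all tested genes, and -1.81 without WT replicate 1.

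**Figure D3:**
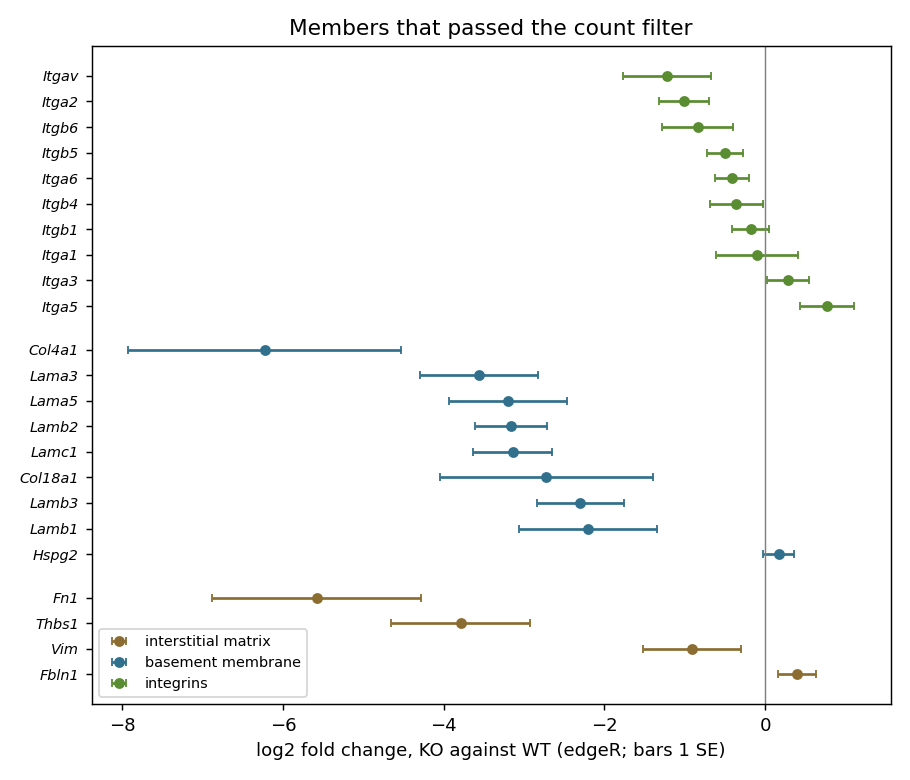
Log2 fold change of KO against WT (edgeR, all 4 libraries) for the 23 genes that passed the count filter, with bars of 1 SE. Laminin genes and Col4a1 lie between -6.23 and -2.20, Hspg2 at 0.17, and the integrin genes between -1.22 and 0.77.

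Itgb1, Itga3, Itgb4 and Itga6 were the most abundant of the 35, at a mean of 44.6 to 67.4 FPKM over the libraries. Fbln1 and Lamb3, at 22.7 and 17.8 FPKM, lay above the other integrin genes. Levels of the tested integrin genes differed little between the genotypes beside those of the laminins. Itgb1, the beta-1 chain that pairs with most alpha chains, was at 330 and 262 CPM in WT against 270 and 254 CPM in KO (log2 fold change -0.18, SE 0.23, edgeR adjusted p = 0.743). Itga3, the laminin-binding alpha-3 chain that pairs with it, was at 260 and 189 CPM in WT against 297 and 251 CPM in KO (log2 fold change 0.29, SE 0.26, edgeR adjusted p = 0.62). The genotypes overlapped in both genes. Itga6 and Itgb4 encode the chains of the hemidesmosome integrin, which binds the anchoring laminin. Itga6 was at 311 and 286 CPM in WT against 220 and 230 CPM in KO, with no overlap (log2 fold change -0.41, SE 0.21, edgeR adjusted p = 0.409). Itgb4, on chromosome 11 from 115974725 to 116008412, was at 385 and 232 CPM in WT against 203 and 277 CPM in KO (log2 fold change -0.36, SE 0.33, edgeR adjusted p = 0.619). Per length, Itga6 stood at 0.821 to 1.25 times the level of Itgb4 in the 4 libraries. The hemidesmosome chains thus stayed near equal levels in libraries whose Lama3 level ranged from 0.59 to 19.5 FPKM.

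Itga2, the alpha-2 chain of a collagen receptor, was the 1 integrin gene with an unadjusted p under 0.05. It was at 34.2 and 41.5 CPM in WT against 14.1 and 23.4 CPM in KO, 49.6% of the WT mean (log2 fold change -1.01, SE 0.31, adjusted p = 0.252 in edgeR and 0.104 in DESeq2). The KO values were both below the WT values, and the log2 fold change was -1.16 without WT replicate 1. Itga1, the alpha-1 chain of another collagen receptor, was at 7.83 and 20.8 CPM in WT against 11 and 15.7 CPM in KO, with overlap. Its span overlaps 1804 bases of Pelo, so its counts are uncertain.

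Of the integrins that bind fibronectin and other RGD ligands, Itga5 was higher in both KO libraries, at 9.69 and 6.62 CPM in WT against 14.4 and 13.4 CPM in KO (log2 fold change 0.77, SE 0.34, edgeR adjusted p = 0.342). Itgav, the alpha-v chain, was at 68.7 CPM in WT replicate 1 and between 17.4 and 21 CPM in the other 3 libraries. Itgb6, an epithelial beta chain that activates latent TGF-beta together with alpha-v, followed the same order with 43.2 CPM in WT replicate 1 and 15.7 to 18.4 CPM elsewhere. Their log2 fold changes of -1.22 and -0.84 (edgeR adjusted p = 0.347 and 0.408) became -0.12 and -0.07 without WT replicate 1. Itgb5 was at 42.2 and 34.7 CPM in WT against 29 and 25.4 CPM in KO, without overlap (log2 fold change -0.50, SE 0.22, edgeR adjusted p = 0.336). Itgb8 had 7 and 2 counts in WT and was not listed in KO. Over the 10 tested integrin genes the median log2 fold change was -0.38, and -0.09 without WT replicate 1.

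**Figure D4:**
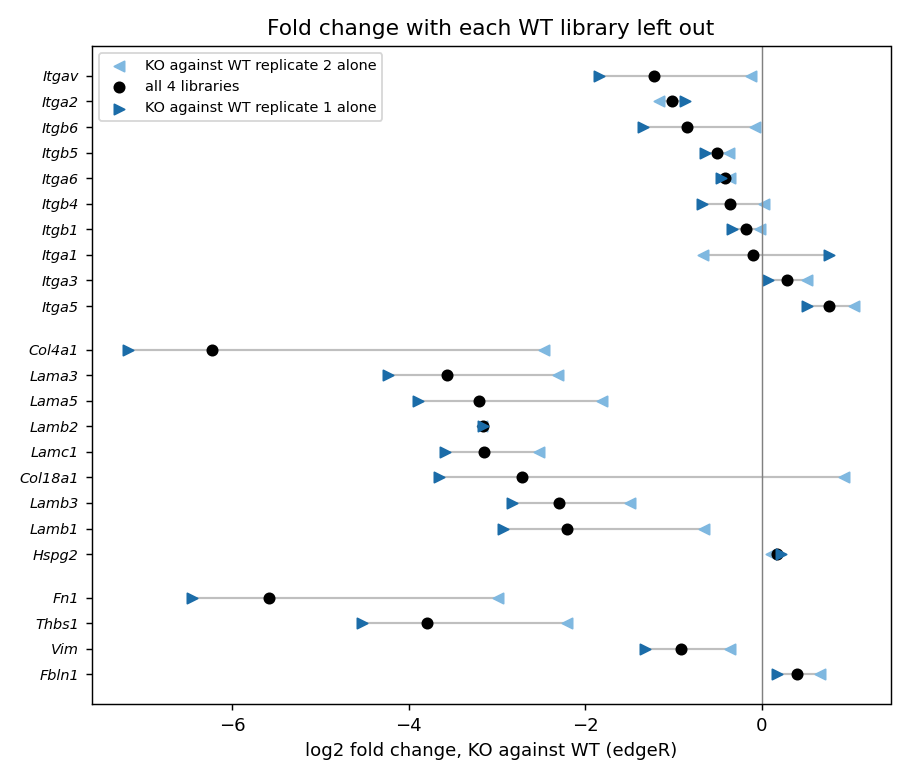
Log2 fold change of KO against WT (edgeR) with all 4 libraries (circles), with WT replicate 1 left out (left-pointing triangles) and with WT replicate 2 left out (right-pointing triangles), for the 23 tested genes. Lamb2 stays at -3.17 to -3.16, the other laminin genes stay below 0, and Col18a1, Itgb4 and Itga1 cross 0.

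WT replicate 1 was the highest library for 28 of the 35 genes, while it was the highest for 31.5% of all listed genes. The groups did not overlap, with KO lower, for 15 of the 35 (22.2% of all listed genes), made up of 9 basement membrane, 4 integrin and 2 interstitial matrix genes. These counts take an unlisted gene as 0, which applies to Col4a2, Nid1 and Itgb8 among the 15. For 3 of the 35 KO was higher without overlap (20.7% of all listed genes), namely Fbln1, Hspg2 and Itga5. Both KO libraries lay below WT replicate 2 for 16 of the 35, against 33.8% of all listed genes. With WT replicate 1 left out, edgeR called 0 members lower (0% of tested genes), and with WT replicate 2 left out it called 7 (1.04% of tested genes): Lama3, Lama5, Lamc1, Col4a1, Thbs1, Fn1 and Itgav. With either KO library left out it called 0 members (0% of tested genes). With the replicate number as a term it called 3 members lower, Fn1, Lamb3 and Lamc1 (0.548% of tested genes).

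Setting stromal matrix against epithelial basement membrane and integrin genes, the groups differed in how their summed levels were ordered across libraries. Integrin genes summed to 298 and 225 FPKM in WT and 208 and 235 FPKM in KO, with overlap. Basement membrane genes summed to 88 and 30.4 FPKM in WT and to 11.9 and 9.95 FPKM in KO, so that both KO libraries were lower. Interstitial matrix genes summed to 44.4 and 22.3 FPKM in WT and 24.4 and 34.3 FPKM in KO, and without Fbln1 to 21.2, 5.89, 1.87 and 5.53 FPKM in the same order. As a share of the integrin sum, basement membrane genes were at 29.5% and 13.5% in WT and 5.71% and 4.23% in KO. Interstitial matrix genes were at 14.9% and 9.92% in WT and 11.7% and 14.6% in KO, so the genotypes separated in the first ratio and not in the second. That overlap depended on Fbln1. Without it the interstitial matrix share was 7.13% and 2.62% in WT and 0.899% and 2.35% in KO, so both KO libraries were then lower, KO replicate 2 by little. Vim, which encodes a protein inside cells, held most of the sum without Fbln1 in every library but WT replicate 1. Its level was 7.01 and 3.59 FPKM in WT and 1.44 and 4.21 FPKM in KO. The 10 collagen genes summed to 9.64 FPKM in WT replicate 1 and to between 0.36 and 0.82 FPKM in the other libraries. These sums are a description, with no test, and the difference between the groups of genes was not tested.

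**Figure D5:**
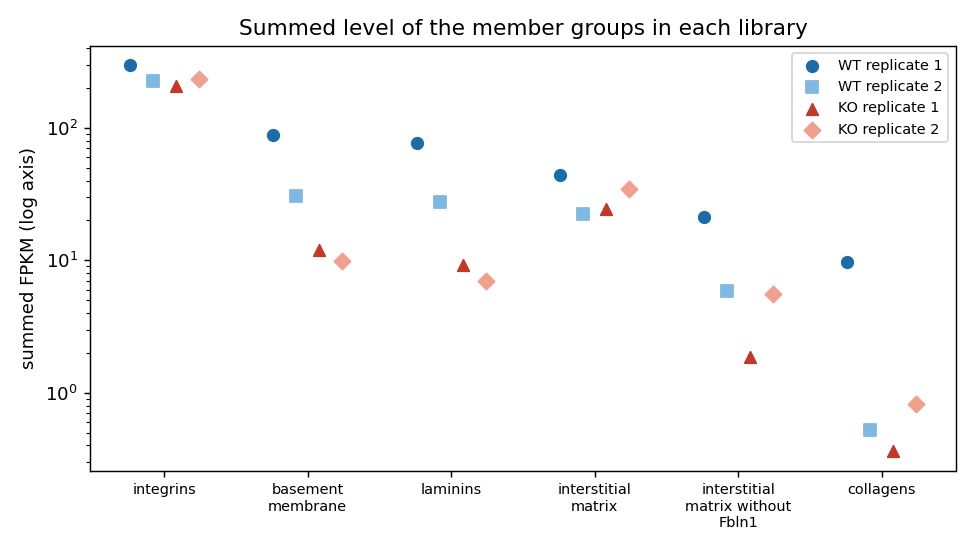
Summed FPKM (log axis) of groups of members in each library, 1 point per library; the laminin and collagen sums repeat members of the wider groups. The KO points lie below both WT points for basement membrane genes (11.9 and 9.95 against 88 and 30.4 FPKM), while for integrins the genotypes overlap.

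Genes of the same pathways outside the 35 were taken from lists of 114 symbols in 7 lists. None passed edgeR in either direction at an adjusted p under 0.05, and the tested genes with the smallest p, up to 3 a list, are named. Of 10 other laminin and basement membrane genes 7 were tested, 6 of them lower and 1 higher in KO. Of all 12769 tested genes, 6343 were lower and 6426 higher. Before TMM scaling, Npnt and Smoc1 among the 6 reached the count filter in the WT libraries alone. Their place among the tested genes thus depended on a high WT level. Npnt, which encodes the integrin ligand nephronectin, was at 11.3 and 2.01 CPM in WT, at 0.683 CPM in KO replicate 1 and not listed in KO replicate 2 (adjusted p = 0.271 in edgeR and 0.0259 in DESeq2). Nid2, a further nidogen gene, had a log2 fold change of -0.89 (edgeR adjusted p = 0.383). Other collagens resembled the interstitial members: of 16, 14 were listed and all 14 stayed under 1 FPKM. The 3 tested were Col16a1 (log2 fold change -1.42), Col4a3 (0.47) and Col7a1 (-0.03), with edgeR adjusted p values of 0.405, 0.857 and 0.983. Of 19 other matrix proteins 2 were tested. Spp1, the osteopontin gene, was at 11.5 CPM in WT replicate 1 and 0.13 to 0.681 CPM elsewhere (log2 fold change -3.81, and 1.58 without that library), and Dcn, the decorin gene, at 2.44 and 1.04 CPM in WT against 0.751 and 1.23 CPM in KO.

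Enzymes that process collagen held the smallest p of these lists. Of 11 tested, 5 were lower and 1 higher at an unadjusted p under 0.05 (8.69% and 7.08% of all tested genes), with a median log2 fold change of -0.97. Some of the 5 reached the count filter in the WT libraries alone, so this lower count depended in part on a high WT level. Bmp1, the protease that trims procollagen and laminin chains, was at 21.2 and 20.5 CPM in WT against 2.73 and 1.16 CPM in KO (log2 fold change -3.42, SE 0.49, adjusted p = 0.105 in edgeR and 9.76e-09 in DESeq2). As with Lamb2, the WT libraries were near equal, and the log2 fold change was -3.41 without WT replicate 1. Tgm2, a crosslinking transglutaminase gene, was at 175 and 174 CPM in WT against 106 and 72.5 CPM in KO (log2 fold change -0.97, adjusted p = 0.215 in edgeR and 0.0212 in DESeq2). Plod3, a collagen lysyl hydroxylase gene, went the other way, at 33.6 and 29.3 CPM in WT against 58.3 and 50.2 CPM in KO (log2 fold change 0.79, edgeR adjusted p = 0.219).

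Of 7 tested matrix proteases and inhibitors, 4 were lower and 1 higher at an unadjusted p under 0.05 (8.69% and 7.08% of all tested genes). Timp3, a matrix-bound protease inhibitor gene, was at 24.8 and 4.61 CPM in WT against 1.23 and 1.16 CPM in KO (log2 fold change -3.61, adjusted p = 0.208 in edgeR and 0.000602 in DESeq2), and its log2 fold change was -1.96 without WT replicate 1. Plat, the tissue plasminogen activator gene, was at 76.4 and 2.01 CPM in WT against 0.0683 and 0.204 CPM in KO. Plat, among the 4 lower genes, reached the count filter in the WT libraries alone. Its log2 fold change was -8.08, and -3.82 without WT replicate 1. Mmp15, a membrane-type metalloprotease gene, had a log2 fold change of -0.78 (edgeR adjusted p = 0.249). Integrin adaptors and plakins, which tie integrins to the cytoskeleton, had a median of -0.26 over 16 tested genes, with 1 lower and 0 higher at an unadjusted p under 0.05 (8.69% and 7.08% of all tested genes). The 1 was Fermt1, the epithelial kindlin gene, at 90.9 and 135 CPM in WT against 64.8 and 71.3 CPM in KO (log2 fold change -0.73, edgeR adjusted p = 0.272). Plec and Dst, the plakin genes of hemidesmosomes, had log2 fold changes of -0.81 and -0.75 (edgeR adjusted p = 0.32 and 0.327), and of -0.42 and -0.49 without WT replicate 1. Among 10 other tested integrin genes the median was 0.39. Itga7, a laminin-binding alpha chain, had a log2 fold change of -2.21, and the myeloid alpha chains Itgax and Itgam had 1.37 and 0.60, with edgeR adjusted p values of 0.277, 0.355 and 0.624. Without WT replicate 1 the values were -1.35, 1.76 and -0.06, and the genotypes overlapped in Itgam.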

How the data were processed

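The authors deposited 1 table per library with expected counts and FPKM for each gene, per the file headers. Bowtie2 2.2.5, RSEM 1.2.12 and build mm10 appear in the submitters' processing notes. Whether counting used strand is not given in the sources used. The authors' tables list genes from an FPKM of 0.01, so an absent gene is called not listed, with no upper limit. Tables were joined on gene identifiers with pandas 2.3.3, 1 row without a gene (at most 0.000233% of counts) was dropped per library, and expected counts were rounded, with unlisted genes as 0 in tests, means and counts of overlap.

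The main test was edgeR's quasi-likelihood test (version 4.0.16, R 4.3.3) of KO against WT (genotype only, TMM, filterByExpr, 12769 genes, Benjamini-Hochberg). The biological coefficient of variation was 32.5%. Alternatives used DESeq2 1.42.0, limma 3.58.1 (trend) on log2 of the deposited FPKM with a pseudocount of 1 or 0.1, other scalings and filters, the replicate number as a block, and each library left out, the lone library then being assumed to vary like the other group. The test was checked on simulated data. The 35 genes, their roles and all lists were chosen with earlier results of these data known. Genes given in every library are those with an unadjusted p under 0.05 and the 3 most abundant per role; others were added after their values were seen. Coordinates are RefSeq's for GRCm38.p6, and 17721 of 17762 identifiers matched. A total of 16 members overlap another RefSeq gene span, and 4 of them a protein-coding one. The result for 1 gene of the lists outside the 35 is not reported here.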

Additional observations from a re-analysis of the deposited data

How the results depend on the processing

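Lamb2, Lamc1, Lama3, Lama5, Lamb3, Lamb1, Thbs1, Fn1 and Col4a1 were lower in KO in every alternative that tested them. DESeq2 called 8 members lower (424 genes lower and 233 higher in all). Without a filter edgeR called 8 genes lower and 19 higher, none of them members. Library size alone, limma on log2(FPKM + 1) and limma on log2(FPKM + 0.1) called 0 genes higher. The median log2 fold change of interstitial matrix members was -0.94 with at least 50 counts in at least 2 libraries (3 genes tested, the median being Vim's value). Limma on log2(FPKM + 1) gave -0.96 for these members and -1.22 for basement membrane members, where the pseudocount shrinks changes of low genes. Leaving out 1 library gave 0 to 7 members called lower, 0 to 133 genes lower and 0 to 41 higher. Medians then lay between -3.16 and -1.29 for interstitial matrix members, between -3.59 and -1.81 for basement membrane members and between -0.55 and -0.09 for integrin members. With the replicate block edgeR called 3 members lower (Fn1, Lamb3 and Lamc1), 70 genes lower and 46 higher. Deviations of same-numbered libraries correlated at -0.13 over genes and the labels do not say that numbers pair libraries. The replicate number also followed the split by Xist and Ddx3y, so the replicate block is a term for that split as well. A crossed replicate block, chosen after seeing the data, joined libraries unlike in these sex-linked genes. It called 5 members lower, 99 genes lower and 65 higher. Single members changed sign 5 times in 272 recomputed values: Itga1 (0.03 with the replicate block, 0.77 without WT replicate 2, 0.13 without KO replicate 1), Col18a1 (0.93) and Itgb4 (0.03) without WT replicate 1. Over the libraries left out in turn, Itga1 ranged from -0.66 to 0.77, Col18a1 from -3.66 to 0.93 and Itgb4 from -0.68 to 0.03. Where no construction is named, the cause was not tested. Depth limits the 12 untested members, whose highest count outside WT replicate 1 was 9.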
